A study of Mus musculus with 24 samples.

Results

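The 10 genes described here are markers of Kupffer cells, the resident macrophages of the liver: Adgre1, Clec4f, Cd5l, Vsig4, Marco, Timd4, Csf1r, C1qa, C1qb and C1qc. They were chosen by name, though with earlier results of these data known, from the 15160 genes with deposited read counts. All 10 were among the 13336 genes that passed the filter on low counts. Of these, 9 were found by the symbol deposited with the counts and Clec4f by its Ensembl identifier, ENSMUSG00000014542. The question put to them was whether markers of liver macrophages differed with dietary methionine restriction (MR) or with loss of NRF2 in hepatocytes. In WT mice 6 of the 10 passed the test as lower on MR, beside 13.8% of all genes that passed in either direction, and in NRF2 KO mice 4 of the 10, beside 12.6%. Between genotypes 0 of the 10 passed, beside 2.07% of all genes on the Con diet and 1.93% on MR.

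Liver mRNA was measured in male mice on a C57BL/6 background, with a single library for each animal, in WT and NRF2 KO mice that were given either the control diet (Con) or the MR diet. All mice carried homozygous floxed Nfe2l2, the gene of the transcription factor NRF2, and the NRF2 KO mice also carried 1 copy of Alb-cre. The albumin promoter drives Cre in hepatocytes, so macrophages and the other non-parenchymal cells of NRF2 KO livers should keep an intact gene. The Con diet held 0.86% methionine and the MR diet 0.17%, both without cysteine, fed from 8 weeks of age, for 8 weeks before energy expenditure was measured, and the livers were taken later, at a labelled age of 5 months, after a 4 h fast. QuantSeq libraries sample each transcript near its 3′ end, so 1 read stands for 1 transcript copy whatever its length. The libraries WT_CON_7604 and WT_MR_7612 were set aside, which left 22 of 24 mice, 5 in each WT group and 6 in each NRF2 KO group. No source used here says which mice were littermates or were processed together.

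Kupffer cells line the sinusoids of the liver, where they clear bacteria, aged red blood cells and dying cells from portal blood. They settle in the liver before birth and renew themselves there, and they depend on signalling through the CSF1 receptor, which binds the ligands CSF1 and IL-34. Their identity is set by macrophage transcription factors such as those encoded by Spi1, Nr1h3, Id3 and Spic. When they are lost, monocytes from blood can take their place and slowly acquire the same markers, Timd4 among the last. In bulk liver RNA, fewer Kupffer cells and less of these mRNAs per cell cannot be told apart.

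The promoter sequences of 7 of the 10 genes were matched by symbol in RefSeq (GRCm38.p6), and those of C1qb, Cd5l, Marco and C1qc are shown because 2 of these genes fell with MR in both genotypes, 1 in WT mice, and Marco in neither. Each is printed 5′ to 3′ on the strand of its gene and ends before the first base of every start annotated in RefSeq or GENCODE M21. The windows are chr4:136886201-136886450 on the minus strand, chr3:87357631-87357880 on the plus strand, chr1:120505025-120505274 on the minus strand and chr4:136893066-136893164 on the minus strand. Capitals mark matches, on either strand, to GAGGAA, a purine-rich core bound by the ETS factor that Spi1 encodes, or to AGGTCA, a core shared by nuclear receptors.
C1qb: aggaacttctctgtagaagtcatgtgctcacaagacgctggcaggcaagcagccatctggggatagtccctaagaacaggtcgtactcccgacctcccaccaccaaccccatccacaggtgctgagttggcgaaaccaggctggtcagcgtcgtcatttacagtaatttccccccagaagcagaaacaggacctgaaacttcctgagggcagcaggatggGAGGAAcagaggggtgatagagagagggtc
Cd5l: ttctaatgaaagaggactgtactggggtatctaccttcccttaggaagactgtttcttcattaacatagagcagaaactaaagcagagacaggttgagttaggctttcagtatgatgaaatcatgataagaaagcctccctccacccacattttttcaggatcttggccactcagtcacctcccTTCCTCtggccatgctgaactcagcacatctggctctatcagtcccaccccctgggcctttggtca
Marco: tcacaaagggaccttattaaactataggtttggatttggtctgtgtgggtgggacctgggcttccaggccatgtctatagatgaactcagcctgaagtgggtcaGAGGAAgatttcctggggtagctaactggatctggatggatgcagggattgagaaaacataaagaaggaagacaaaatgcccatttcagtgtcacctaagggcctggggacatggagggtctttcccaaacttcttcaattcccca
C1qc: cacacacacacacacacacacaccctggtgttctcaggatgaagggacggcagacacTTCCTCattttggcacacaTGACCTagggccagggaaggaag

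Within the 250 bases before the RefSeq start, GAGGAA was found in 5 of the 7 members, namely Cd5l, Vsig4, Marco, C1qb and C1qc, and in 23.3% of all 32851 promoters in the table. AGGTCA was found in Clec4f, Timd4 and C1qc, against 14.0% of all promoters. The AP-1 motif TGACTCA was found in 0 of the 7, against 4.46%. None of these 3 motifs overlaps another in the printed windows. A match is a run of letters and no evidence of binding. GAGGAA was present in Marco, which was not called, and absent from Clec4f, which was. The C1q genes lie together on chromosome 4, on the minus strand, within 18675 bases (GRCm38, 136880129 to 136898803).

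Total counts ran from 6197291 to 22068338 per mouse, with a median of 15019792 over the 22 mice. Nfe2l2 itself was read near the 3′ end of its transcript, and the files do not place these reads relative to the part of the gene that Cre excises, so the counts were not used as a check of the deletion. They came to 106, 125, 117, 324 and 118 CPM (each count relative to the TMM-scaled size of its library) in the WT Con mice, 94.0 to 107 in WT MR, 228 to 339 in NRF2 KO Con and 202 to 249 in NRF2 KO MR. The library labelled WT_CON_7607, with the highest of these WT values, stood with the NRF2 KO libraries and apart from the other 9 WT libraries. It also had the highest WT Con level of Adgre1, Cd5l, Vsig4, Marco and C1qc, and of Clec4f by a margin smaller than 1 CPM. Many of the comparisons that use WT Con mice are therefore followed by what changed without it. The summed levels, their ratio and the correlations between genes are given only with it included. The least-read marker was Timd4, with 32 to 146 counts per mouse, and the highest count of any marker was 3331 for Cd5l. A gene is called changed at a Benjamini-Hochberg adjusted p under 0.05 in edgeR's quasi-likelihood test over all 13336 genes.

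**Figure D1:**
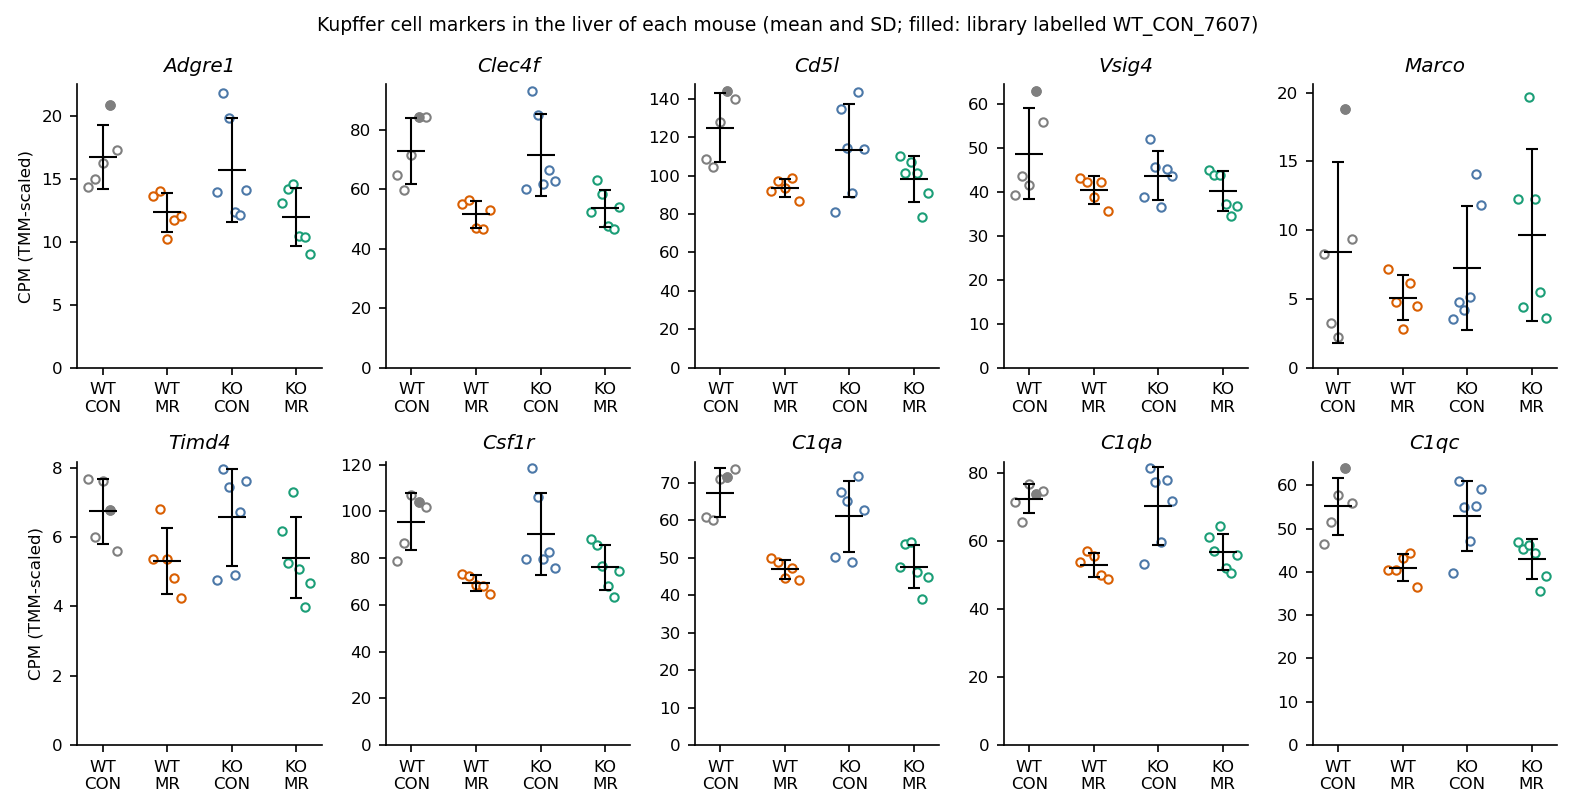
Level of each of the 10 Kupffer cell markers (vertical axis, TMM-scaled CPM from 0) in each mouse of the 4 groups. Circles are mice, lines and bars the mean ± SD, and the filled circle is the library labelled WT_CON_7607. For 7 markers no WT MR mouse reached the lowest WT Con mouse, while both NRF2 KO groups overlap in every panel and Marco is scattered in all groups but WT MR.

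Methionine restriction lowered the 3 genes of C1q in WT mice. C1qa, C1qb and C1qc encode the 3 chains of C1q, the recognition molecule of the classical complement pathway, which in liver comes mainly from macrophages. C1qa stood at 60.8, 60.0, 71.1, 71.6 and 73.6 CPM in the WT Con mice and at 49.8, 48.8, 44.5, 47.3 and 43.9 CPM in the WT MR mice. No WT MR mouse reached the lowest WT Con mouse. The mean went from 67.4 ± 6.47 to 46.9 ± 2.57 CPM (SD, n = 5 and 5), a log2 fold change of -0.52 ± 0.10 (SE) with an adjusted p of 0.00167. C1qb stood at 71.4, 65.6, 76.8, 73.8 and 74.6 CPM on Con and at 53.8, 57.0, 55.5, 49.9 and 48.7 CPM on MR. Here too the groups did not overlap, and C1qb fell by 26.8% (log2 fold change -0.45 ± 0.10, adjusted p = 0.0036, edgeR). C1qc ran from 46.4 to 64.0 CPM on Con and from 36.4 to 44.3 CPM on MR, again without overlap. It fell by 25.7% (log2 fold change -0.43 ± 0.11, adjusted p = 0.00935, edgeR). All 3 calls held in every one of the 22 fits that left out 1 mouse.

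Clec4f, a C-type lectin that marks Kupffer cells and few other macrophages, was also lower. Its levels were 64.9, 59.8, 71.6, 84.4 and 84.3 CPM in WT Con and 55.2, 56.4, 47.1, 46.7 and 53.2 CPM in WT MR. The highest WT MR mouse lay just under the lowest WT Con mouse. The log2 fold change was -0.50 ± 0.12 (adjusted p = 0.00849, edgeR), and it was -0.44 (adjusted p = 0.0284, edgeR) without the library labelled WT_CON_7607. Csf1r, the receptor through which these cells receive their survival signal, stood at 79.0, 86.3, 107, 104 and 102 CPM on Con and at 73.2, 72.2, 68.6, 68.0 and 64.8 CPM on MR. The groups were apart, with a narrow gap and a wider spread on Con. Csf1r fell by 27.5% (log2 fold change -0.46 ± 0.12, adjusted p = 0.0101, edgeR). Its gene on chromosome 18 overlaps Hmgxb3 on the opposite strand at its end, and the library kit keeps the strand. Calls for both genes held in all 22 fits without 1 mouse.

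Cd5l, a secreted scavenger-receptor protein made by tissue macrophages, passed the threshold with less to spare. It stood at 109, 105, 128, 144 and 140 CPM in WT Con and at 92.0, 97.3, 93.5, 98.8 and 86.9 CPM in WT MR. The WT MR mice lay close together below all WT Con mice. The log2 fold change was -0.42 ± 0.13 (adjusted p = 0.0309, edgeR), and the call held in 16 of the 22 fits without 1 mouse. It was lost without WT_CON_7605, the library labelled WT_CON_7607, WT_CON_7608, WT_MR_7609, WT_MR_7613 or WT_MR_7616, where the adjusted p by edgeR reached 0.0815.

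The other 4 markers were not called in WT mice. Adgre1, the adhesion receptor commonly used to stain mouse macrophages, stood at 14.3, 15.0, 16.2, 20.8 and 17.2 CPM in WT Con and at 13.6, 14.0, 10.2, 11.8 and 12.0 CPM in WT MR. These groups did not overlap, and the log2 fold change of -0.43 ± 0.16 was as large as for called members, but the adjusted p was 0.0761 (edgeR). Leaving out the library labelled WT_CON_7607 took it to -0.34 (edgeR, adjusted p = 0.198). Vsig4, a receptor for fragments of complement C3, had a log2 fold change of -0.27 ± 0.12 (adjusted p = 0.128, edgeR), with WT Con at 39.3 to 63.0 CPM and WT MR at 35.6 to 43.2 CPM. The value for Vsig4 came to -0.16 once the library labelled WT_CON_7607 was left out (edgeR, adjusted p = 0.392). Timd4, a receptor for phosphatidylserine on dying cells that marks long-resident Kupffer cells, had -0.32 ± 0.17 (adjusted p = 0.236, edgeR). Its WT Con mice ran from 5.59 to 7.68 CPM and its WT MR mice from 4.23 to 6.80 CPM, so that the groups overlapped.

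Marco, a scavenger receptor for bacteria and particles, was the most variable of the 10. It stood at 8.26, 3.27, 2.24, 18.8 and 9.37 CPM in WT Con and at 7.17, 4.78, 2.85, 6.18 and 4.49 CPM in WT MR. WT Con held both the lowest and the highest mouse. The coefficient of variation was 78.4% in WT Con, 32.5% in WT MR, 61.8% in NRF2 KO Con and 65.0% in NRF2 KO MR, whereas that of C1qb was 5.88% in WT Con and 6.76% in WT MR. The log2 fold change of Marco was -0.71 ± 0.59 (adjusted p = 0.465, edgeR) and came to -0.20 without the library labelled WT_CON_7607, and with all 24 mice it turned to 0.47.

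In all, 6 of the 10 markers were called in WT mice, each of them lower, beside 13.8% of all genes tested called in either direction and 6.91% called lower. All 10 log2 fold changes were below 0, as were 51% of all genes, with a median of -0.44 against -0.01 for all genes. For 7 markers the WT groups did not overlap, beside 9.32% of all genes. Without the library labelled WT_CON_7607, 5 markers were called, Cd5l being lost, and the median was -0.36. A fit of the WT groups alone called 7, Adgre1 being added. With WT_CON_7604 and WT_MR_7612 put back, 4 were called (Clec4f, Csf1r, C1qa and C1qb) with a median of -0.34. WT_MR_7612 lay above every other WT MR mouse for 9 of the 10 markers. Scaling by total counts alone left 2 calls, C1qa and C1qb, with a median of -0.36 where the median of all genes moved to 0.09.

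**Figure D2:**
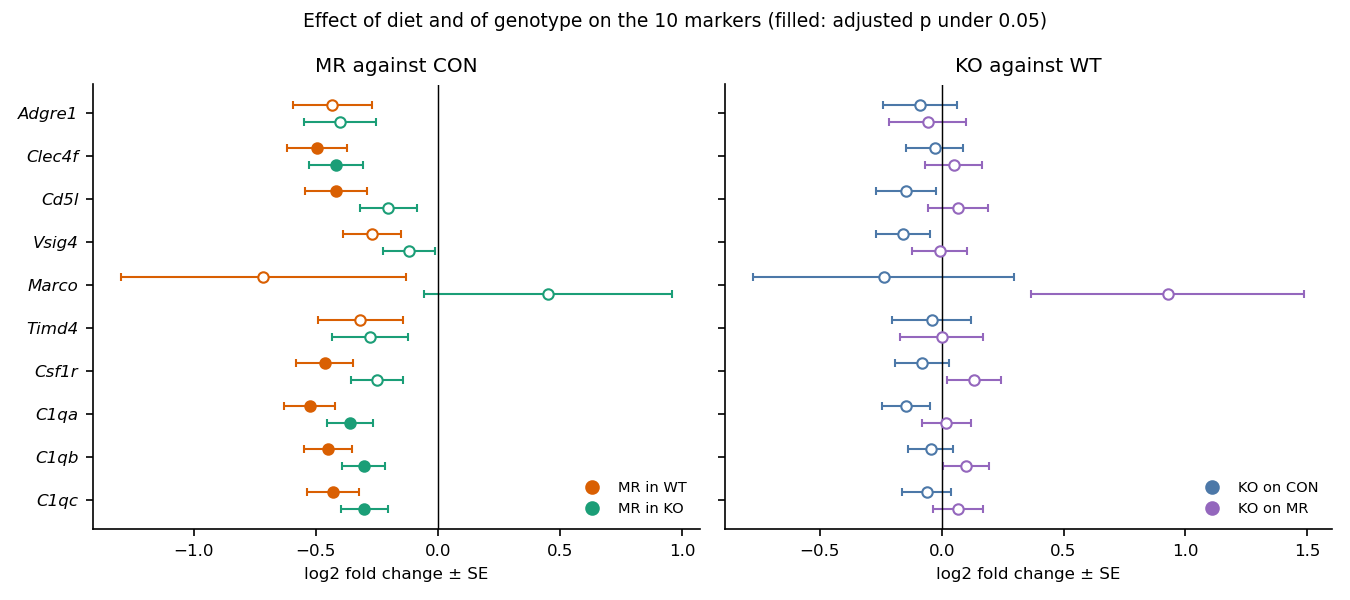
Log2 fold change ± SE (horizontal axis) of each marker for MR against Con in each genotype (left) and for NRF2 KO against WT on each diet (right). Filled circles passed an adjusted p of 0.05, which 6 markers did with diet in WT mice, 4 with diet in NRF2 KO mice and 0 with genotype. Marco has the widest bars in both panels.

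The diet comparison in NRF2 KO mice gave fewer calls and smaller values. C1qa ran from 48.9 CPM through a median of 63.9 to 71.9 CPM in NRF2 KO Con and from 39.0 through 46.9 to 54.1 CPM in NRF2 KO MR. The lowest Con mouse lay within the MR range. The log2 fold change was -0.36 ± 0.09 (adjusted p = 0.0137, edgeR). Clec4f ran from 60.2 through 64.6 to 93.0 CPM on Con and from 46.6 through 53.3 to 63.0 CPM on MR. The MR mice sat low in the Con range or below it, and Clec4f fell by 25.1% (log2 fold change -0.42 ± 0.11, adjusted p = 0.0149, edgeR). C1qb had a log2 fold change of -0.30 ± 0.09 (adjusted p = 0.0259, edgeR) and C1qc of -0.30 ± 0.10 (adjusted p = 0.0421, edgeR).

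The calls for C1qa and Clec4f held in all 22 fits without 1 mouse, that for C1qb in 18 and that for C1qc in 13. C1qb was lost without KO_CON_7618, KO_CON_7620, KO_MR_7629 or KO_MR_7631, and C1qc without any of these, or WT_MR_7611, KO_CON_7622, KO_CON_7623, KO_MR_7627 or KO_MR_7632. Cd5l (-0.20 ± 0.12, adjusted p = 0.273) and Csf1r (-0.25 ± 0.11, adjusted p = 0.127) were called in WT but not in NRF2 KO mice by edgeR. Adgre1 stood at -0.40 ± 0.15 (adjusted p = 0.0719), Timd4 at -0.28 ± 0.16 (adjusted p = 0.26) and Vsig4 at -0.12 ± 0.11 (adjusted p = 0.514) in the same edgeR fit. Marco had a log2 fold change of 0.45 ± 0.51 (adjusted p = 0.619, edgeR), with NRF2 KO MR mice from 3.60 to 19.7 CPM.

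Together 4 of the 10 were called in NRF2 KO mice, all lower, beside 12.6% of all genes called and 6.34% called lower. Of the 10 values, 9 were below 0, as were 50.8% of all genes, with a median of -0.29, and for 0 of the 10 were the groups apart, beside 5.45% of all genes. Scaling by total counts alone left 0 of these calls and moved the median of all genes to 0.15 and that of the markers to -0.14, with Vsig4 at 0.03. A fit of the NRF2 KO groups alone left 2 calls, Clec4f and C1qa, as did the fit of all 24 mice.

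The NRF2 KO Con mice were themselves spread. KO_CON_7618 held the highest level of Adgre1, Clec4f, Vsig4, Timd4, Csf1r, C1qb and C1qc, and KO_CON_7617 or KO_CON_7621 the lowest of Cd5l, Vsig4, Timd4, C1qa, C1qb and C1qc. Without KO_CON_7618 the log2 fold change of Csf1r moved from -0.25 to -0.16 and that of Clec4f from -0.42 to -0.33.

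A test of the difference between genotypes in the diet effect, the interaction term, called 0 of the 10 markers by edgeR, 0 at an unadjusted p under 0.05, and 0 by DESeq2 or limma. It called 6 of all genes (0.045%) by edgeR and 36 by DESeq2. In the 22 mice 0 of the 10 interaction values were below 0, beside 49.4% of all genes, that is, less lowering in NRF2 KO mice, and with all 24 mice 6 of 10 were above 0. Leaving out the library labelled WT_CON_7607 put 9 of 10 above 0 and moved the median from 0.15 to 0.10. For Csf1r the interaction was 0.21 with a 95% interval from -0.11 to 0.54, for Cd5l 0.21 from -0.14 to 0.57, and for C1qa 0.16 from -0.12 to 0.45. All 3 intervals hold 0, and those of Csf1r and Cd5l also hold a value as large as the diet effect in WT, so the calls made in WT and not in NRF2 KO mice are not shown to differ between genotypes.

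Averaged over both genotypes, MR lowered 7 of the 10 markers, beside 27.4% of all genes called and 14.1% called lower. Adgre1 joined those called in WT, with a log2 fold change of -0.42 ± 0.11 (adjusted p = 0.00618, edgeR). C1qa fell by 26.4% (adjusted p = 6.09e-05), Clec4f by 27.1% (adjusted p = 0.000239) and C1qb by 23.0% (adjusted p = 0.000179) in the same edgeR fit. Csf1r fell by 21.9%, C1qc by 22.4% and Cd5l by 19.3%. Timd4 (-0.30 ± 0.12, adjusted p = 0.0594) and Vsig4 (-0.19 ± 0.08, adjusted p = 0.0701) stayed short of the threshold in edgeR, and Marco was at -0.13 ± 0.39, a sign that turned without the library labelled WT_CON_7607 (0.13), without KO_CON_7622 (0.01) and with all 24 mice (0.46). All 7 calls held in each of the 22 fits without 1 mouse, and scaling by total counts alone left 5 with the median at -0.24 and that of all genes at 0.12.

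Loss of hepatocyte NRF2 moved none of the 10 markers past the threshold. On the Con diet 0 of 10 were called, beside 2.07% of all genes, and on MR 0 of 10, beside 1.93%. Averaged over diets it was 0 of 10 beside 5.45%. None reached an unadjusted p under 0.05 in edgeR in any of these 3 comparisons, and DESeq2 and limma called 0 as well. Averaged over diets, the log2 difference of C1qa was -0.06 with a 95% interval from -0.21 to 0.08, that of C1qb 0.03 from -0.11 to 0.16 and that of Clec4f 0.01 from -0.16 to 0.18. For Csf1r it was 0.03 from -0.14 to 0.19, and for Marco 0.34 from -0.47 to 1.16, which leaves room for a difference of more than 1 log2 unit in that gene. The medians over the 10 were -0.08 on Con, 0.06 on MR and -0.01 averaged. On Con all 10 values were below 0, beside 50.8% of all genes, and on MR 2 of 10, beside 48.9%, and with all 24 mice the median on MR turned to -0.09. Without the library labelled WT_CON_7607, 7 of the 10 values on Con were below 0 and their median was -0.04, with Marco going from -0.24 to 0.27, and without KO_CON_7617 6 of 10 were below 0. No marker was called in either fit. With all 24 mice the value of Marco averaged over diets turned to -0.72.

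**Figure D3:**
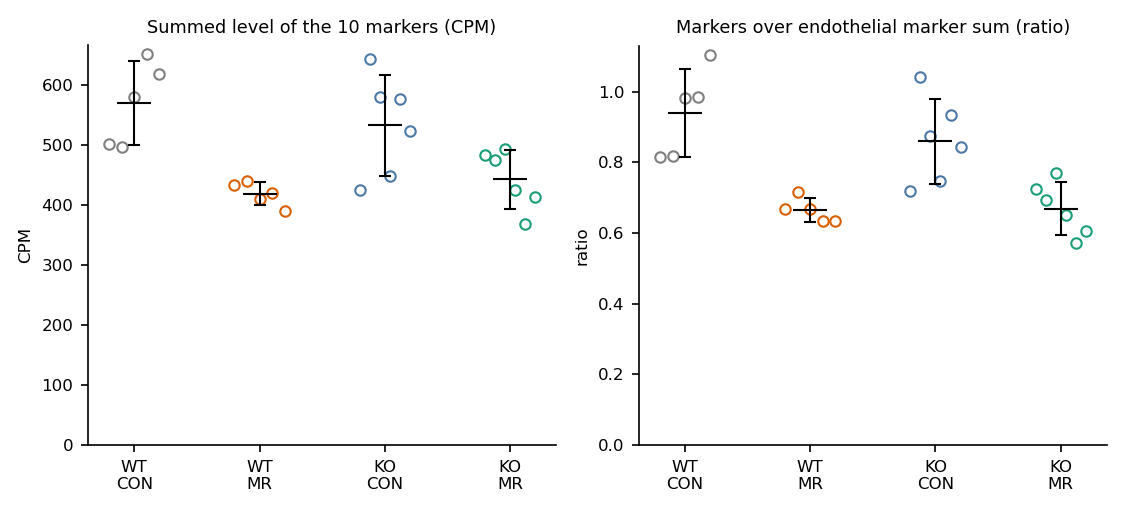
Summed level of the 10 markers in each mouse (left, CPM) and the same sum divided by the summed level of 15 endothelial marker genes (right, ratio), both from 0, with mean ± SD. The WT groups do not overlap in either panel and the NRF2 KO groups overlap in both.

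Summed over the 10 genes, the markers of WT mice came to 569 ± 69.5 CPM on Con and 419 ± 19.8 CPM on MR (SD, 5 mice each). Those of NRF2 KO mice came to 533 ± 84.1 CPM on Con and 443 ± 48.8 CPM on MR (SD, 6 mice each). The WT Con mice ran from 496 to 651 CPM, the highest in the library labelled WT_CON_7607. The WT MR mice ran from 390 to 440 CPM. In NRF2 KO mice the ranges 425 to 643 and 368 to 492 CPM overlapped. Cd5l and Csf1r give the largest parts of this sum. Markers of sinusoidal endothelium, another non-parenchymal cell type, came to 607 ± 37.2, 631 ± 23.1, 619 ± 24.9 and 662 ± 18.9 CPM in the same order of groups. The ratio of the marker sum to the endothelial sum was 0.940 ± 0.124 in WT Con, 0.664 ± 0.034 in WT MR, 0.859 ± 0.120 in NRF2 KO Con and 0.669 ± 0.074 in NRF2 KO MR. Genes of stellate cells, also non-parenchymal, summed to 725 ± 146, 553 ± 59.0, 683 ± 28.8 and 616 ± 37.8 CPM in that order. The stellate sum was lower on MR in both genotypes, as the marker sum was. By contrast the endothelial sum, the divisor of the ratio, was higher on MR in both. The sum of 10 hepatocyte genes was also lower on MR. It came to 116228 ± 12718 and 94569 ± 6929 CPM on Con and MR in WT mice. In NRF2 KO mice it came to 131563 ± 5171 and 115480 ± 9474 CPM. No ratio to the stellate or hepatocyte sum was taken.

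A longer list of 30 further genes of Kupffer cells and macrophages moved in the same direction with exceptions. In WT mice 14 of the 30 were called, 13 lower and 1 higher, with a median of -0.39. In NRF2 KO mice 8 were called, 6 lower and 2 higher, with a median of -0.18. Averaged over genotypes 18 were called, 15 lower and 3 higher. Of all genes, 13.8%, 12.6% and 27.4% were called in the same comparisons. Without the library labelled WT_CON_7607 the WT calls were 11 lower and 1 higher, with all 24 mice 8 lower and 1 higher, and with scaling by total counts alone 8 lower and 1 higher.

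C6, a terminal complement component also made by hepatocytes, fell furthest, with a log2 fold change of -1.89 in WT and -2.23 in NRF2 KO mice. Mpeg1, the pore-forming protein of macrophage phagosomes, went from 25.8 ± 5.02 to 14.2 ± 1.74 CPM in WT (-0.86) and from 25.0 ± 3.60 to 15.2 ± 2.01 CPM in NRF2 KO mice (-0.71). Folr2 (-0.71 and -0.45), a folate receptor of resident macrophages, and Cybb (-0.68 and -0.41), the catalytic subunit of the phagocyte oxidase, were called in both genotypes. So were the Fc receptor and adaptor chains Fcer1g (-0.37 and -0.35) and Tyrobp (-0.46 and -0.30). Cd68 (-0.65), Fcgr1 (-0.66), Ctss (-0.53), Aif1 (-0.54), Il18bp (-0.47), Axl (-0.42) and Lyz2 (-0.45) were called in WT and not in NRF2 KO mice, a difference not called by the interaction test, and Fcgr3 (-0.28) and Cfp (-0.30) in the average over genotypes alone. The calls of Axl and Lyz2 in WT, and of Fcgr3 and Lyz2 in the average, were lost without the library labelled WT_CON_7607.

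Slc40a1, the iron exporter ferroportin, rose in WT mice from 107 ± 17.9 to 173 ± 26.3 CPM (log2 fold change 0.70). In NRF2 KO mice it stood at 107 ± 16.1 and 110 ± 8.44 CPM (0.04). In the 22 mice, of the 30, it alone was called between genotypes, lower in NRF2 KO on MR (-0.65), while its interaction was -0.65 ± 0.16 with an adjusted p of 0.212 (edgeR). Mrc1, also found on sinusoidal endothelium, and Mertk, a receptor for the uptake of dying cells, were called higher in NRF2 KO mice (0.25 and 0.37) and not in WT mice (0.14 and 0.12). Cd163 (0.04 in WT and 0.05 in NRF2 KO mice), Clec1b (-0.22 and 0.08), Fcna (-0.25 and -0.01) and Cd38 (-0.04 and 0.08), all markers of resident Kupffer cells, were called in no diet comparison. Cd163 was called higher in NRF2 KO mice averaged over diets once the library labelled WT_CON_7607 was left out (0.38, against 0.30 with it).

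Among 20 ligands, receptors and transcription factors that maintain Kupffer cells, MR gave 3 calls in WT and 1 in NRF2 KO mice. Averaged over genotypes it gave 7. Of all genes, 13.8%, 12.6% and 27.4% were called in the same comparisons. All calls in the list were lower except 1 in the average, beside 6.91%, 6.34% and 14.1% of all genes called lower. Once the library labelled WT_CON_7607 was left out, 1 call remained in WT, Acvrl1, and the average had 5. Spi1, the master factor of the macrophage lineage, was lower in both (-0.66 and -0.60), from 14.6 ± 3.65 to 9.23 ± 1.47 CPM in WT mice, where the call was lost when the library labelled WT_CON_7607 was left out (edgeR, -0.60, adjusted p = 0.0873). Zeb2 (-0.44) and Acvrl1 (-0.83), the latter a receptor for BMP9 and BMP10, were lower in WT, Zeb2 not without that library (-0.36). Irf8 (-0.44), Gdf2 (-0.24), which encodes BMP9, and Tgfb1 (-0.58) were called lower in the average alone, and Dll1 (0.52), a Notch ligand, higher, and of these Irf8 kept its call without that library. The ligands of the CSF1 receptor were not called. Csf1 came to 6.61 ± 1.22, 6.34 ± 1.12, 5.72 ± 1.37 and 6.81 ± 0.91 CPM on Con and MR in WT and then on Con and MR in NRF2 KO mice, and Il34 to 3.58 ± 1.53, 2.75 ± 0.91, 3.39 ± 0.55 and 3.80 ± 0.67 CPM. Id3 (-0.49 in WT and 0.03 in NRF2 KO mice), Nr1h3 (-0.08 and -0.14) and Spic (-0.18 and -0.20) were not called in either genotype. Bmp10 was called higher in NRF2 KO mice averaged over diets (0.41).

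With MR, 6.91% of all genes in WT and 6.34% in NRF2 KO mice were called lower. Of 10 partners and regulators of C1q in the classical pathway, most made by hepatocytes, the same 4 were lower in WT and NRF2 KO mice. These were C1s1 (-0.41 and -0.65), a protease that C1q carries, C4b (-0.75 and -0.67), its substrate, and the inhibitors C4bp (-0.54 and -0.45) and Serping1 (-0.43 and -0.54). C1ra, the other protease of the complex, was at 0.00 and -0.09 and C2 at 0.17 and 0.13, neither called. C3 was called higher in the average over genotypes (0.22). Among 15 genes for the uptake of dying cells, Axl and Elmo1 (-0.88) were lower in WT, Mertk was higher in NRF2 KO mice, and Dock2 (-0.50) was lower in the average. The calls in this list came to 2 in WT, 1 in NRF2 KO mice and 3 in the average. Those counts stood near or below the 13.8%, 12.6% and 27.4% of all genes called. Leaving out the library labelled WT_CON_7607, 0 of these 15 were called in WT, and the 4 complement genes were still called. Stab2 (0.25) and Cd36 (-0.93) differed with genotype averaged over diets.

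**Figure D4:**
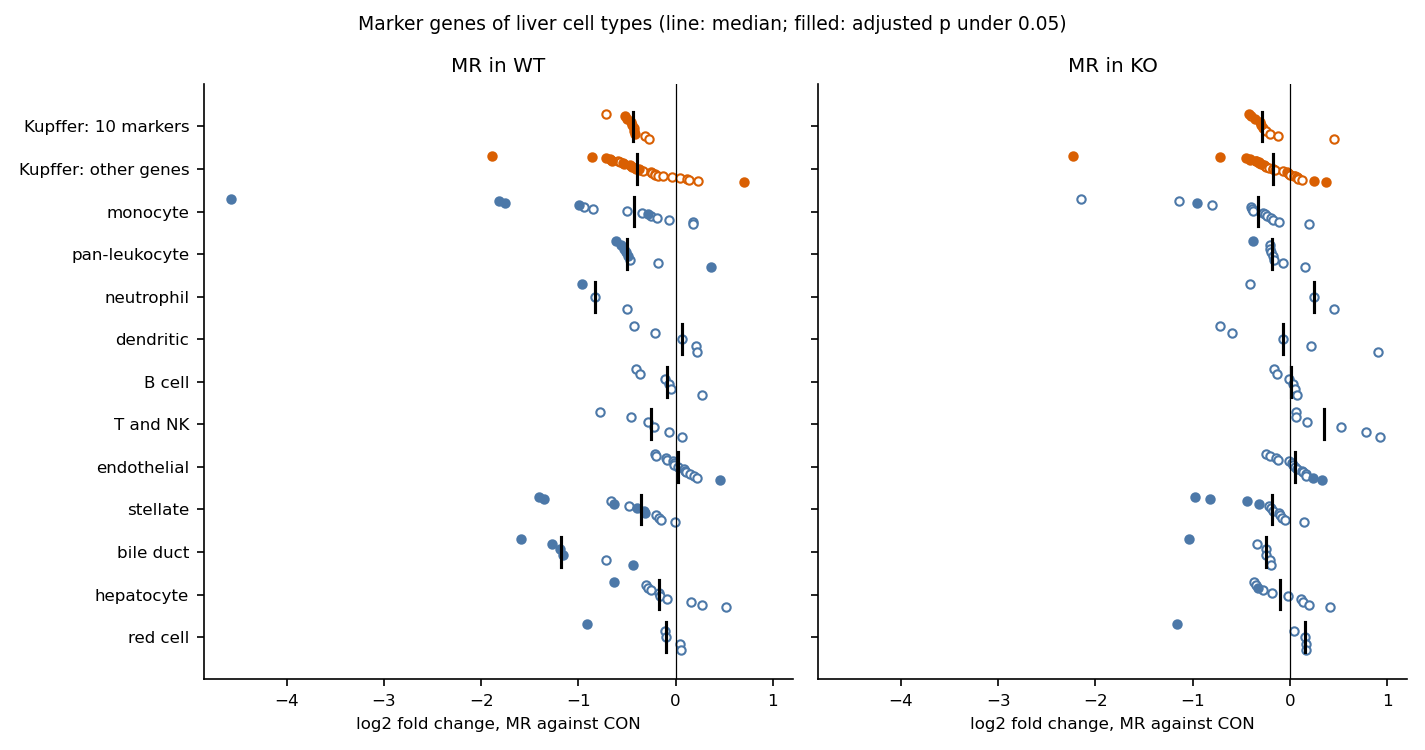
Log2 fold change for MR against Con (horizontal axis) of marker genes of 13 groups of liver and blood cells in WT (left) and NRF2 KO mice (right). Circles are genes, filled where the adjusted p was under 0.05, and black lines are medians. Medians in WT mice are -0.44 for 10 Kupffer markers, -0.43 for monocyte, -0.50 for pan-leukocyte, -0.36 for stellate cell and -1.17 for bile duct genes. The endothelial genes lie near 0.02. In NRF2 KO mice the Kupffer markers have a median of -0.29 and the monocyte genes of -0.33.

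Markers of other cell types moved with the diet as well. In WT mice the medians of the monocyte (-0.43), leukocyte (-0.50) and bile duct genes (-1.17) lay near or below that of the Kupffer markers (-0.44). The median of the stellate cell genes was -0.36. Averaged over genotypes, 7 of 14 monocyte genes were called lower, beside 14.1% of all genes. Of all genes, 13.8% were called in WT and 12.6% in NRF2 KO mice, with 6.91% and 6.34% called lower. Without the library labelled WT_CON_7607, calls in WT mice went from 5 to 3 of the monocyte genes (Plac8 and Gpnmb lost), from 6 to 5 of the leukocyte genes (Cd53 lost) and from 6 to 4 of the stellate cell genes (Ecm1 and Dcn lost), and stayed at 5 of the bile duct genes. Of 14 monocyte genes tested, 5 were lower in WT mice (Ccr2 -0.99, Cx3cr1 -1.75, Ccl2 -1.82, Gpnmb -4.58 and Plac8 -0.29) and 1 in NRF2 KO mice (Itgax -0.96). Ly6c2 was at -0.50 and -0.27 and not called. Gpnmb was read 0 to 14 times per mouse in WT MR and exceeded 1 CPM in Con mice alone. Of 8 genes shared by all leukocytes, 5 were lower in WT, among them Ptprc (-0.51) and Laptm5 (-0.62), with Coro1a at -0.47 and not called, and Lcp1 was higher (0.37). In NRF2 KO mice 1 of the 8 was called, Cd52 (-0.38).

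Outside the blood lineages, 6 of 12 stellate cell genes were lower in WT and 4 in NRF2 KO mice, with Lrat at -0.63 and -0.44, Des at -0.48 and -0.05 and Reln at -0.21 and -0.11. Of 6 bile duct genes tested, 5 were lower in WT and 1 in NRF2 KO mice, with Krt7 at -1.19 and -0.20, Epcam at -1.59 and -0.20, and Krt19 at -0.72 and -0.25. Of 15 endothelial genes 1 was called in WT and 2 in NRF2 KO mice, all higher, and Stab2 (-0.10 and -0.13), Lyve1 (0.22 and -0.24) and Clec4g (-0.02 and 0.13) were not. Among hepatocyte genes Apoa1 was lower in both (-0.64 and -0.32), and Alb (-0.30 and -0.18) and Ttr (-0.28 and -0.35) were not called within a genotype. Averaged over genotypes, 4 of 10 hepatocyte genes were called lower, beside 14.1% of all genes. The haemoglobin genes Hba-a1 (0.05 and 0.17), Hba-a2 (0.04 and 0.16) and Hbb-bs (-0.10 and 0.17) were not called.

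Lymphocytes, dendritic cells and neutrophils left few reads. No B cell, T and NK cell or dendritic cell gene was called in either genotype by edgeR, with Cd79b at -0.04 and 0.08, Cd3d at -0.29 and 0.52, Xcr1 at -0.43 and 0.91 and Clec9a at 0.22 and 0.22. The summed level of the dendritic list ran from 9.89 to 13.1 CPM over the 22 mice. Of 3 neutrophil genes tested, Retnlg (-0.96) was lower in WT mice, though not when the library labelled WT_CON_7607 was left out (edgeR, -0.90, adjusted p = 0.0602), while S100a8 (-0.83 and 0.24) and S100a9 (-0.50 and 0.46) were not called. No listed gene was at 0 in every mouse of a group. The part that shifts in these cell types play in the lower Kupffer markers was not tested.

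**Figure D5:**
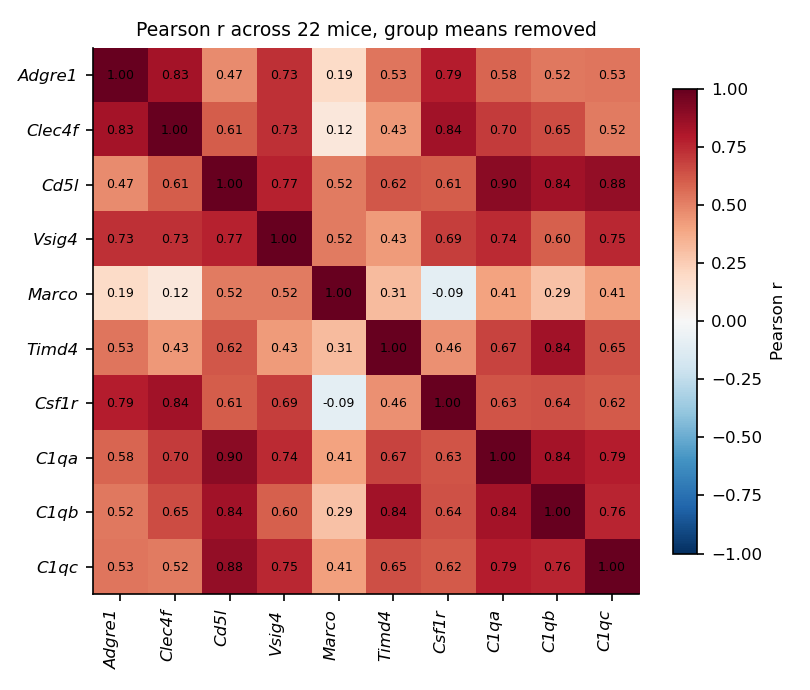
Pearson r between each pair of markers over the 22 mice, from log2 CPM with the mean of each group removed (colour and printed value). Pairs without Marco lie between 0.43 and 0.90, and those with Marco between -0.09 and 0.52.

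Within groups the markers rose and fell together from mouse to mouse, with Marco apart. After the group means were removed from log2 CPM, Pearson r over the 22 mice was 0.43 to 0.90 for the 36 pairs among the 9 markers other than Marco, with a median of 0.66, and -0.09 to 0.52 for the 9 pairs with Marco. C1qa and Cd5l were the closest pair (0.90), followed by C1qc and Cd5l (0.88). Adgre1 and Csf1r (0.79) and Clec4f and Csf1r (0.84) formed closer pairs than Adgre1 and Cd5l (0.47). All genes of a mouse share 1 library and its scaling, so these values describe the libraries. No r for pairs of other genes is given beside them, so how unusual they are cannot be judged.

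Against the mean of the 10 markers, computed the same way, the 10 of 12000 genes with the highest r were Cd5l (0.89), Rab7b (0.87), Vsig4 (0.87), C1qa (0.86), Myo9a (0.84), C1qc (0.82), Lyz2 (0.80), Cd14 (0.79), C1qb (0.79) and Cd163 (0.79). The 5 of these that are members form part of the mean. Rab7b, a small GTPase of endosomes, was lower with MR in NRF2 KO mice (-0.67) and Cd14, the co-receptor for lipopolysaccharide, in WT mice (-0.74, adjusted p = 0.0421, edgeR), a value not refitted without a mouse. Myo9a was called in neither (-0.38 and -0.09). Cd163 followed the markers from mouse to mouse within groups and was called in no diet comparison.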

How the data were processed

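Liver RNA of 24 mice was sequenced as QuantSeq 3′ libraries. The authors mapped and counted the reads with the kit maker's pipeline and deposited raw read counts per gene, together with a second table of signal values, which the authors made by dividing each count by 1 DESeq2 size factor per mouse. The submitters' processing notes name GRCm38/mm10, R 3.4.3 and DESeq2 1.18.1. The aligner and annotation are not given in the sources used here.

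For the present analysis the deposited counts entered edgeR 4.0.16 under R 4.3.3, with TMM scaling, the filterByExpr filter and robust quasi-likelihood tests, as a single model of 4 group means over 22 mice and 13336 genes. P-values were adjusted by Benjamini-Hochberg over all genes tested. Total counts per mouse ran from 6197291 to 22068338, and precision is the SD between mice or the SE of the model. Alternatives were DESeq2 size factors or total counts for scaling, no filter or at least 10 counts in every mouse, DESeq2 1.42.0, limma 3.58.1 on log2 of the deposited signal plus 1, all 24 mice, only the groups compared, and each mouse left out in turn. On simulated data with 200 genes changed by 1 log2 unit among 13180, the model recovered 148 in the WT diet comparison (4 called falsely) and 155 in the NRF2 KO diet comparison (5 called falsely). The markers called within a genotype moved by 0.30 to 0.52 log2 units. Recovery at changes of that size was not simulated, so these rates do not apply to them.

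The members, gene lists and tests were chosen with earlier results of these data known. The text names the 10 members, regulators of Kupffer cells, genes of the Kupffer, regulator, complement and uptake lists called in any comparison, the first 3 genes of each other list where tested, Nfe2l2, Ptprc and the 10 genes most like the mean of the members. Other genes named in the cell type lists were chosen after their values were seen. Symbols and positions are from the files and GENCODE M21, promoters from RefSeq, and figures were drawn with matplotlib 3.10.9. Some genes of the lists are not reported here.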

Additional observations from a re-analysis of the deposited data

Results flagged for a closer look

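In WT_MR_7612, 1 of the 2 libraries left out of the 22, 5 of the 10 markers stood far above the other WT MR mice when all 24 mice were scaled together. Marco was at 66.5 CPM against a median of 4.80 in the other 5 WT MR mice, Cd5l at 163 against 93.6, C1qa at 69.7 against 47.9, C1qb at 87.4 against 54.3 and C1qc at 67.9 against 40.9 CPM. Each was flagged because the gap to the next mouse took 0.677 to 0.787 of the range of the 6 mice, above Dixon's critical value. Such gaps arise by chance in about 1 of 20 groups, and 20 were examined with the 2 libraries included. The 5 flags share 1 library, so they do not count as separate groups. The paper removed 2 samples, from WT Con and WT MR, as outliers in a principal component analysis of these data. A gap in a library left out as an outlier is therefore no separate evidence. In the 40 groups formed by the 22 mice none was flagged. The cause was not tested.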

How the results depend on the processing

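The direction of every called marker held under all alternatives. Counts of called markers for MR in WT (6) were 2 with total-count scaling, 4 with all 24 mice, 7 with only the groups compared, and 5 to 6 without 1 mouse. For MR in NRF2 KO (4) they were 0 with total-count scaling, 2 with all 24 mice, 2 with only the groups compared, 3 with limma, and 2 to 5 without 1 mouse; averaged over genotypes (7) they were 5 to 9. Total-count scaling brought the median of all genes to 0.09 (WT) and 0.15 (NRF2 KO) and made 73.2% and 86.1% of calls higher, against 50.0% and 49.6%. The cause was not tested.

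Over all genes, calls for MR in NRF2 KO rose from 1677 to 2785 with total-count scaling. Genotype calls on Con (276) were 444 with DESeq2, 99 with only the groups compared and 181 to 314 without 1 mouse, the lowest without WT_CON_7603. On MR (258) they were 496 with DESeq2 and 600 with only the groups compared. Interaction calls (6) were 36 with DESeq2 and 3 to 12 without 1 mouse. Without 1 mouse the median of the markers ran from -0.49 to -0.36 in WT, the weakest without the library labelled WT_CON_7607, and from -0.36 to -0.23 in NRF2 KO mice. No paired analysis was possible because the groups share no replicate numbers. Marco, the most variable marker between mice, was the least precise (SE 0.59 for MR in WT), followed by Timd4, the least read (0.17).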

Other observations

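The genes that ran most opposite to the markers from mouse to mouse within groups, chosen after their values were seen, were Cyp8b1 (r = -0.85 with the mean of the 10 markers over 22 mice), Pafah2 (-0.82) and Fggy (-0.78). Cyp8b1, the sterol hydroxylase that directs bile acid synthesis to cholic acid, is a hepatocyte gene. Its level was 504 ± 201 CPM in WT Con, 270 ± 110 in WT MR, 329 ± 167 in NRF2 KO Con and 111 ± 67.0 in NRF2 KO MR (SD, n = 5, 5, 6 and 6). It was called lower with MR in NRF2 KO mice (log2 fold change -1.56) and not in WT mice (-0.90). Between diets it thus had the same sign as the markers, and between mice of 1 group the opposite sign. Pafah2 (-0.05 in WT and -0.17 in NRF2 KO mice) and Fggy (-0.08 and -0.16) were not called with diet.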
